A study of Mus musculus with 12 samples.

Results

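The immunoglobulin constant genes and the J chain gene were followed in mammary tumors of MADM-mutant mice. They comprise 10 of the 47593 genes in the expression table, taken by symbol: the heavy-chain constant genes Ighm, Ighd, Igha, Ighe, Ighg1, Ighg2b, Ighg2c and Ighg3, the kappa light-chain constant gene Igkc, and Jchain. All 10 rows were found. The set was chosen by its measured TPM values in these same tumors, so the levels below are a description and no difference between them was tested. In a tumor of bulk tissue, fewer antibody-producing cells and less immunoglobulin RNA per cell cannot be told apart.

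RNA was sequenced from 12 mammary tumors of 9 mice. A single tumor was taken from 7 mice, while tumors 3 and 4 came from 1 mouse and tumors 10, 11 and 12 from another. All tumors were of 1 condition: untreated mice of mixed background carrying both MADM alleles, Brca1 and p53 mutant alleles and an MMTV-Cre transgene, which drives recombination in mammary epithelium. Homozygous mutant cells arise sparsely in an otherwise heterozygous animal, so a homogenised tumor holds heterozygous cells as well. No normal gland was among the samples used here, and the age at collection is not given per animal in the labels. Values are TPM, which divide reads by transcript length and scale each tumor to a fixed total, so that levels of different genes within a tumor can be set side by side. TPM keeps no read number, so the depth of each tumor is unknown, no counting interval is given and a value of 0 means only that the gene is listed at 0. Means are over mice, with tumors of one mouse averaged first, and the SD measures the spread between mice.

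An antibody is built from heavy and light chains, each made of a rearranged variable part and a constant part. A developing B cell first makes the IgM heavy chain, pairs it with a surrogate light chain before its own light chain is rearranged, and later carries IgM together with IgD. After activation a cell may switch its heavy-chain constant gene to an IgG, IgA or IgE gene, and plasma cells then secrete the product. The J chain protein joins IgM and IgA into polymers, and IgA is the isotype best known in the lactating mammary gland and its milk.

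Tumors 2 and 9 stood apart from the others, and so did tumor 8 in its epithelial genes. In tumor 2 the epithelial genes were absent or nearly so (Epcam, an epithelial adhesion molecule, was listed at 0, Krt8 at 0.326 TPM and Cdh1 at 0.116 TPM), although the library is labelled as mammary tumor. Krt8, a luminal keratin, lay between 128 and 3128 TPM in the other 11 tumors, with its lowest value in tumor 8, where Epcam was at 2.03 TPM. The summed TPM of 10 B cell genes was 2201 in tumor 2 and 1413 in tumor 9, against 2.69 to 33.5 in the other 10 tumors. Most of the sum in tumor 9 came from Cr2, a complement receptor, at 1267 TPM. Between 21415 and 23443 genes per tumor were listed above 0, and mitochondrial genes took 3.66% to 7.40% of the TPM. The 10 members together took 0.00144% of the TPM in tumor 1, a median of 0.0547% and 0.360% in tumor 9.

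**Figure D1:**
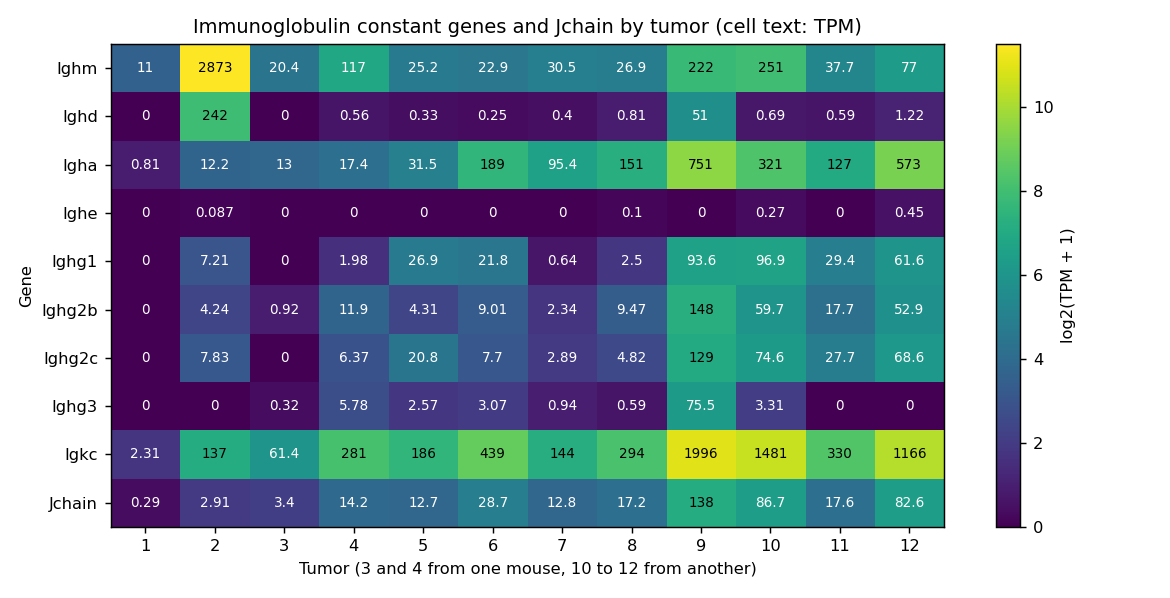
Heat map of the 10 members (rows) in the 12 tumors (columns). Colour gives log2(TPM + 1) and the printed number is the TPM of that gene in that tumor. Ighm reached 2873 TPM in tumor 2, Igkc and Igha were highest in tumor 9, and tumor 1 held 6 members at 0.

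Between 2 and 9 of the 10 members were at 1 TPM or more in a tumor, with a median of 8. Tumor 1 had the fewest, only Ighm and Igkc, and 6 members were listed at 0 there. Tumor 3 had 4 members at that level and tumor 9 had 9, all but Ighe. Ighm and Igkc reached 1 TPM in 12 tumors, Igha and Jchain in 11, Ighg2b and Ighg2c in 10, Ighg1 in 9, Ighg3 in 5, Ighd in 3 and Ighe in none.

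IgM reached the highest level of any isotype, in tumor 2. Ighm (ENSMUSG00000076617, chr12:113418558-113422730, GRCm38, minus strand), which encodes the constant part of the first heavy chain a B cell makes, ranged from 11.0 TPM in tumor 1 through a median of 34.1 TPM to 2873 TPM in tumor 2. The next highest values were 251 TPM in tumor 10, 222 TPM in tumor 9 and 117 TPM in tumor 4, and the other 8 tumors lay between 11.0 and 77.0 TPM. The mean over mice was 378 ± 938 TPM (SD, n = 9 mice), and 66.1 TPM without the mouse of tumor 2, so the mean rests on that animal.

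IgD was well above 1 TPM in tumors 2 and 9 only. Ighd (ENSMUSG00000104213), whose product sits beside IgM on mature naive B cells, was at 242 TPM in tumor 2, 51.0 TPM in tumor 9 and 1.22 TPM in tumor 12. It was under 1 TPM in the other 9 tumors and listed at 0 in tumors 1 and 3. Tumor 2 carried more Ighd than tumor 9, yet relative to Ighm the order was the opposite: Ighd was 0.0842 of Ighm in tumor 2 and 0.230 of Ighm in tumor 9. In the remaining tumors the highest such ratio was 0.0301, in tumor 8.

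IgA was present in nearly every tumor and was lowest in tumors 1 to 4. Igha (ENSMUSG00000095079, chr12:113254830-113260236, minus strand) was at 0.807 TPM in tumor 1, 12.2 TPM in tumor 2, 17.4 TPM in tumor 4, with tumor 3 between the latter, and 31.5 TPM in tumor 5. The other 7 tumors were all higher, from 95.4 TPM in tumor 7 to 573 TPM in tumor 12 and 751 TPM in tumor 9. Its mean was 176 ± 242 TPM (SD, n = 9 mice), or 104 TPM without the mouse of tumor 9. In tumor 2, where Ighm was highest, Igha was the second lowest of the 12 values. In tumors 1 and 3 Ighm was low as well, at 11.0 and 20.4 TPM.

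The IgG genes form a family of close relatives, so it matters whether reads can tell them apart. Of the 75-base windows in the annotated transcripts, windows also found in another gene made up 0.768% for Ighg2b, 0.48% for Ighg2c and 0.574% for Ighg3, and none for Ighg1 or the other 6 members. The hinge, the flexible stretch between the arms and the stem of the antibody, is where the 4 genes differ most visibly in length and in the cysteines that link the heavy chains to each other. The hinge exons are shown because they let the 4 isotypes be told apart at a glance. They lie at chr12:113329844-113329882 for Ighg1, chr12:113307261-113307326 for Ighg2b, chr12:113288263-113288325 for Ighg2c and chr12:113360529-113360576 for Ighg3 (GENCODE vM21 transcripts, GRCm38, minus strand), written 5′ to 3′ with cysteine codons in capitals:
Ighg1 hinge: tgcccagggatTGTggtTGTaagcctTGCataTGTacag
Ighg2b hinge: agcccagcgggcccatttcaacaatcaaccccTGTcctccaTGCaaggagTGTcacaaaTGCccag
Ighg2c hinge: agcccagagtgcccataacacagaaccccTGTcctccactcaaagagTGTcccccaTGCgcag
Ighg3 hinge: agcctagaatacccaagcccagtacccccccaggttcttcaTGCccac

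These exons hold 39 bases with 4 cysteine codons in Ighg1, 66 bases with 4 in Ighg2b, 63 bases with 3 in Ighg2c and 48 bases with 1 in Ighg3. Ighg2c is the form carried by the reference strain, while other laboratory strains carry the related Ighg2a. The mice were of mixed background, so reads of such an allele may have been counted to Ighg2c, which was not tested.

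Ighg1, Ighg2b and Ighg2c were highest in tumor 9 and in the tumors of the mouse with 3 tumors. Ighg1 (ENSMUSG00000076614) ran from 0 in tumors 1 and 3 through a median of 14.5 TPM to 93.6 TPM in tumor 9 and 96.9 TPM in tumor 10. Ighg2b (ENSMUSG00000076613) ran from 0 in tumor 1 through a median of 9.24 TPM to 148 TPM in tumor 9, and reached 59.7 TPM at most elsewhere. Ighg2c (ENSMUSG00000076612) ran from 0 in tumors 1 and 3 through a median of 7.76 TPM to 129 TPM in tumor 9, with 74.6 TPM at most elsewhere. The means of the 3 genes lay close together beside a wide spread, at 24.0 ± 33.1, 25.2 ± 47.7 and 25.9 ± 42.3 TPM (SD, n = 9 mice). Without the mouse of tumor 9 the mean of Ighg1 was 15.3 TPM and that of Ighg2b 9.90 TPM, with Ighg2c between them.

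Ighg3 and Ighe were the sparsest of the switched isotypes. Ighg3 (ENSMUSG00000076615), an IgG typical of responses to polysaccharides, was listed at 0 in tumors 1, 2, 11 and 12 and was at 75.5 TPM in tumor 9. Its next highest values were 5.78 TPM in tumor 4, 3.31 TPM in tumor 10 and 3.07 TPM in tumor 6, and without the mouse of tumor 9 its mean fell from 9.65 to 1.42 TPM. In the mouse with 3 tumors, tumor 10 was the only one with Ighg3 above 0, whereas the other IgG genes were above 17 TPM in all 3 tumors. Ighe (ENSMUSG00000087642), the isotype bound by mast cells and basophils, was listed at 0 in 8 tumors and reached no more than 0.453 TPM, in tumor 12.

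Set against the summed heavy chain, the single gene with the largest share was either Ighm or Igha in every tumor, although the 4 IgG genes together exceeded both in tumor 5. The heavy-chain sum was 11.8 TPM in tumor 1, 34.6 TPM in tumor 3, between 112 and 254 TPM in tumors 4 to 8 and 11, 807 TPM in tumor 10, 834 TPM in tumor 12, 1469 TPM in tumor 9 and 3146 TPM in tumor 2. Ighm had the largest share in tumors 1 to 4, at 93.2%, 91.3%, 59.0% and 72.6%. Igha had the largest share in the other 8 tumors, from 28.3% in tumor 5 to 77.0% in tumor 8. Without tumors 2 and 9 the count led by Igha was 7 of 10, and by mouse it was 6 of 9. Over mice the shares averaged 39.1 ± 34.3% for Ighm, 43.1 ± 29.3% for Igha and 16.4 ± 16.3% for the 4 IgG genes together (SD, n = 9 mice). The tumor numbers rise with the animal numbers of the labels, so the tumors led by Ighm came from the 3 mice with the lowest animal numbers. The labels give no collection date or batch, and whether anything that goes with the animal number had a part in this was not tested.

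**Figure D2:**
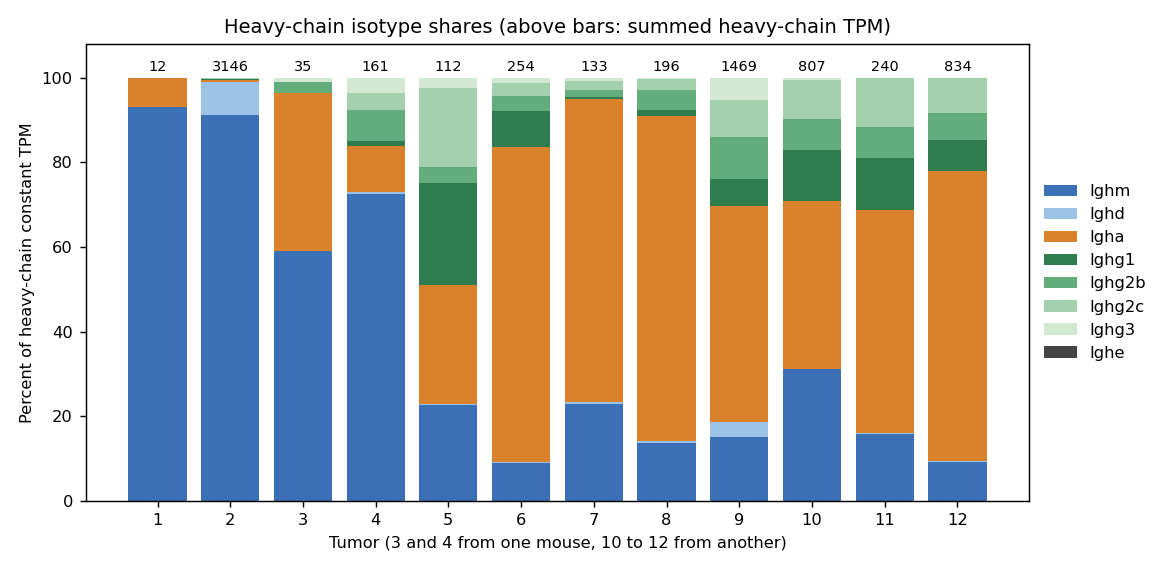
Stacked bars of the 8 heavy-chain constant genes as percent of their summed TPM in each of the 12 tumors, with the summed TPM above each bar. Ighm makes up 59.0% or more in tumors 1 to 4, Igha has the largest share in tumors 5 to 12, and the 4 IgG genes reach 48.9% in tumor 5.

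IgG took the largest part in tumor 5. There the 4 IgG genes made up 48.9% of the heavy-chain TPM, against 31.1% in tumor 11, 30.3% in tumor 9, 29.1% in tumor 10 and none in tumor 1. The IgG of tumor 5 was mainly of 2 kinds, with Ighg1 at 24.1% and Ighg2c at 18.7%, beside 28.3% Igha and 22.6% Ighm. The leading IgG gene varied from tumor to tumor: it was Ighg1 in tumors 5, 6, 10 and 11, Ighg2b in tumors 3, 4, 8 and 9, and Ighg2c in tumors 2, 7 and 12. The differences between the 3 genes in mean log2(TPM + 1) were at most 0.15 between neighbours in their order, within the spread over mice.

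The kappa light chain kept a similar ratio to the heavy chains in 10 tumors and was far lower in tumors 1 and 2. Igkc (ENSMUSG00000076609, chr6:70726435-70726966, plus strand) was at 2.31 TPM in tumor 1, 61.4 TPM in tumor 3, 137 TPM in tumor 2, 1481 TPM in tumor 10 and 1996 TPM in tumor 9, with a median of 288 TPM. Divided by the heavy-chain sum, Igkc was between 1.08 and 1.84 in 10 tumors and averaged 1.52 ± 0.239 over their 7 mice (SD). The ratio was 0.196 in tumor 1 and 0.0436 in tumor 2. Tumor 2 thus had the highest heavy-chain sum of the 12 tumors and the third lowest Igkc level. Adding the lambda light chains moved the 2 low ratios only to 0.201 and 0.0459.

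Lambda chains were a small part of the light chain in every tumor. The 4 lambda constant genes Iglc1, Iglc2, Iglc3 and Iglc4 summed to 0.0623 TPM in tumor 1 and 76.7 TPM in tumor 9, which was 2.45% to 5.99% of the light-chain TPM over the 12 tumors. Iglc1 was highest in tumor 12 at 30.7 TPM, Iglc2 in tumor 9 at 29.2 TPM and Iglc3 in tumor 9 at 20.4 TPM, and Iglc4 was at 0 in 11 tumors. In tumor 2 the share was 4.91%, inside the range of the others.

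Jchain (ENSMUSG00000067149, chr5:88519809-88527891, minus strand) kept a nearly fixed ratio to the heavy chains outside tumors 1 and 2. It was at 0.295 TPM in tumor 1, 2.91 TPM in tumor 2, 3.40 TPM in tumor 3, 82.6 TPM in tumor 12, 86.7 TPM in tumor 10 and 138 TPM in tumor 9, with a median of 15.7 TPM and a mean of 31.5 ± 43.9 TPM (SD, n = 9 mice), or 18.2 TPM without the mouse of tumor 9. Divided by the sum of all heavy-chain constant genes it lay between 0.0731 and 0.114 in 10 tumors (0.0987 ± 0.0103 over 7 mice, SD). In tumor 1 that ratio was 0.0250 and in tumor 2 it was 0.000926. Divided by Igha and Ighm alone, the isotypes that the J chain joins, Jchain was between 0.0970 and 0.152 in 9 tumors, 0.224 in tumor 5, 0.0250 in tumor 1 and 0.00101 in tumor 2. This second ratio leaves IgG out of its denominator, and against all heavy chains tumor 5 (0.114) was close to tumor 6 (0.113).

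**Figure D3:**
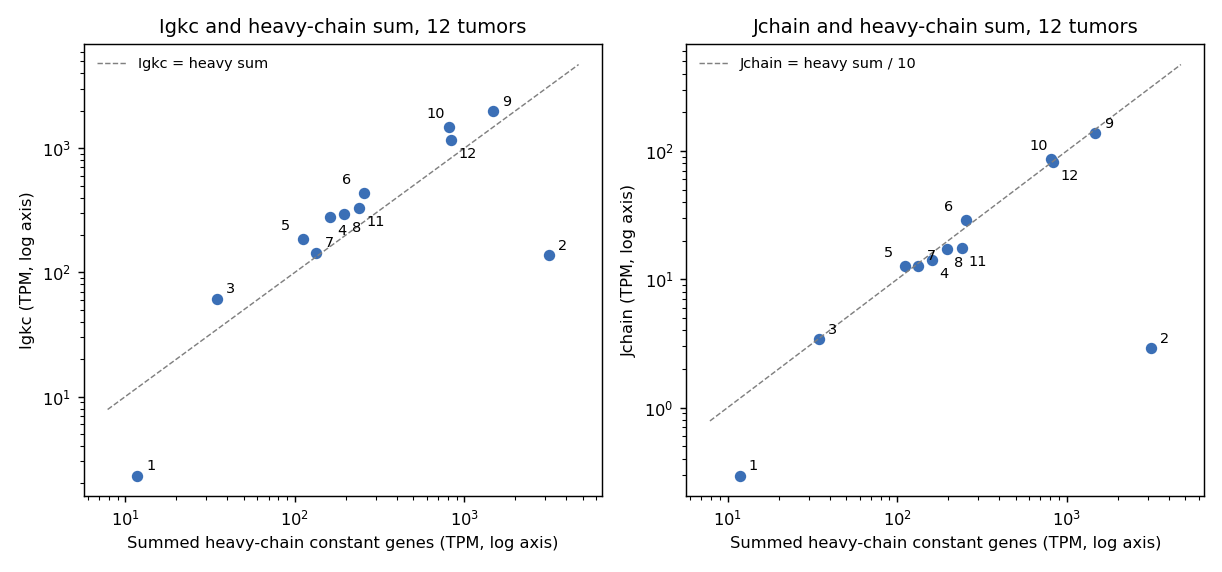
Igkc (left) and Jchain (right) against the summed heavy-chain constant genes, both in TPM on log axes, with 1 point per tumor and its number. Dashed lines mark equal levels (left) and a ratio of 1 to 10 (right). In 10 tumors Igkc lies above the line at 1.08 to 1.84 times the heavy sum, whereas tumors 1 and 2 lie below both lines.

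Ordered by mean log2(TPM + 1) over mice, the members ran from Igkc (7.66) over Ighm (6.11), Igha (5.89), Jchain (3.93), Ighg2c (3.35), Ighg2b (3.20), Ighg1 (3.16), Ighd (1.88) and Ighg3 (1.65) to Ighe (0.06). Only one pair of neighbours in that order differed by more than the spread of its difference: Igha exceeded Jchain by 1.96 ± 0.95 on the log2 scale (SD), in 9 of 9 mice. Ighm and Igha differed by 0.22 ± 3.44, with Ighm the higher in 3 of 9 mice. Igkc exceeded Ighm by 1.54 ± 2.83, in 7 of 9 mice.

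Variable segments, which were not among the genes chosen, differed between tumors in their number and in how the RNA was divided among them. Of 183 heavy-chain variable genes (Ighv), the number at 1 TPM or more was 87 in tumor 9, 76 in tumor 12 and 61 in tumor 10. It was 11 to 24 in tumors 6, 7, 8 and 11, 13 in tumor 2, 7 in tumor 4, 5 in tumor 5, 3 in tumor 3 and none in tumor 1. A count at a fixed level depends on the summed Ighv level, which was 0 in tumor 1, 10.5 TPM in tumor 3, 36.2 to 56.1 TPM in tumors 4 to 8, 86.9 TPM in tumor 11, 301 TPM in tumor 10, 351 TPM in tumor 12, 684 TPM in tumor 9 and 1158 TPM in tumor 2, so low counts beside low sums do not show few segments. Tumor 2 had the highest sum and yet 13 genes at 1 TPM or more, against 87 in tumor 9. The 5 highest genes of the tumor held 95.3% of the Ighv TPM in tumor 2 and 37.7% in tumor 9. Of 160 kappa variable genes (Igkv), 13 to 76 were at 1 TPM or more in tumors 2 to 12 and none in tumor 1.

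In tumor 2 the leading genes were Ighv1-77 at 442 TPM, Ighv3-3 at 211 TPM, Ighv1-81 at 182 TPM, Ighv1-56 at 150 TPM and Ighv1-83, annotated as a pseudogene, at 119 TPM. Ighv1-77 held 38.1% of the Ighv TPM there and was under 3 TPM in every other tumor. Ighv3-3 was no higher than 0.559 TPM elsewhere. All but Ighv3-3 belong to the Ighv1 family, and the variable exons of the 3 that are not pseudogenes are shown so that their likeness can be judged. The exons lie at chr12:115861867-115862160 (Ighv1-77), chr12:115920279-115920572 (Ighv1-81) and chr12:115242802-115243095 (Ighv1-56), GRCm38, minus strand, with bases that differ from Ighv1-77 in capitals:
Ighv1-77: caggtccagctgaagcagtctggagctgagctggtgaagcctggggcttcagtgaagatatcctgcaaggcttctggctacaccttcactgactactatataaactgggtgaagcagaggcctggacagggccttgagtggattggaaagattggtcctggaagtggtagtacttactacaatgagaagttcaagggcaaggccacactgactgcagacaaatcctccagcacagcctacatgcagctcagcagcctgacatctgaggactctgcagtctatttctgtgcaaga
Ighv1-81: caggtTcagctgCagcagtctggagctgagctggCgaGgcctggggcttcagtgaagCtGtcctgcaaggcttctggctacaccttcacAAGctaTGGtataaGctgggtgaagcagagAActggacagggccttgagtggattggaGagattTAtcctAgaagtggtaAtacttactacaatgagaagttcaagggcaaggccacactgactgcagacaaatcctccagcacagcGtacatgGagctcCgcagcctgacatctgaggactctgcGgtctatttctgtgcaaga
Ighv1-56: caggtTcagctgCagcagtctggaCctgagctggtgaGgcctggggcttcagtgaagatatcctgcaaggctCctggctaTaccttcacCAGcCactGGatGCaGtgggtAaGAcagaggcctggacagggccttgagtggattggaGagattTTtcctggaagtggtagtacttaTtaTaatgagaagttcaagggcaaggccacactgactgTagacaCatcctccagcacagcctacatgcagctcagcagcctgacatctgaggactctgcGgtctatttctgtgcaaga

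Over the bases shown Ighv1-81 differs from Ighv1-77 at 24 positions (91.8% identity) and Ighv1-56 at 26 (91.2%). Windows of 75 bases shared with another gene made up 9.64% of Ighv1-77 and 11.9% of Ighv1-56, and none were found for Ighv1-81 or Ighv3-3. Of 346 variable genes with at least 1 window, 179 share a window with another gene, and rearranged segments may carry mutations, so values of single segments are less certain than those of the constant genes. How many rearrangements stand behind the 5 segments of tumor 2 cannot be read from values per gene.

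Few segments also led in tumors 4 and 5. In tumor 5 Ighv10-1 was at 25.6 TPM, which was 66.7% of the Ighv TPM, and Igkv6-14 was at 70.4 TPM, which was 58.1% of the Igkv TPM. In tumor 4 Ighv1-67 was at 26.3 TPM (55.6%) and Igkv3-5 at 53.0 TPM (32.5%). By contrast the highest Ighv gene held 5.77% in tumor 12 and 10.7% in tumor 9, where it was Ighv3-6 at 73.4 TPM. Tumor 3, from the same mouse as tumor 4, had Ighv1-67 at 2.14 TPM (20.3%) and Igkv3-5 at 1.58 TPM (4.30%). The Ighv sum of tumor 3 was only 10.5 TPM. Outside this mouse, Ighv1-67 held at most 5.71% (tumor 6) and Igkv3-5 at most 2.00% (tumor 11). Among the Igkv genes of tumor 2 the highest was Igkv9-124 at 27.6 TPM (24.7%). Segments annotated as pseudogenes held 28.2% of the Igkv TPM there, against at most 0.165% in any other tumor (tumor 10). Without them Igkv9-124 held 34.4%. The Igkv sum of 112 TPM in tumor 2 compares with its Ighv sum of 1158 TPM.

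**Figure D4:**
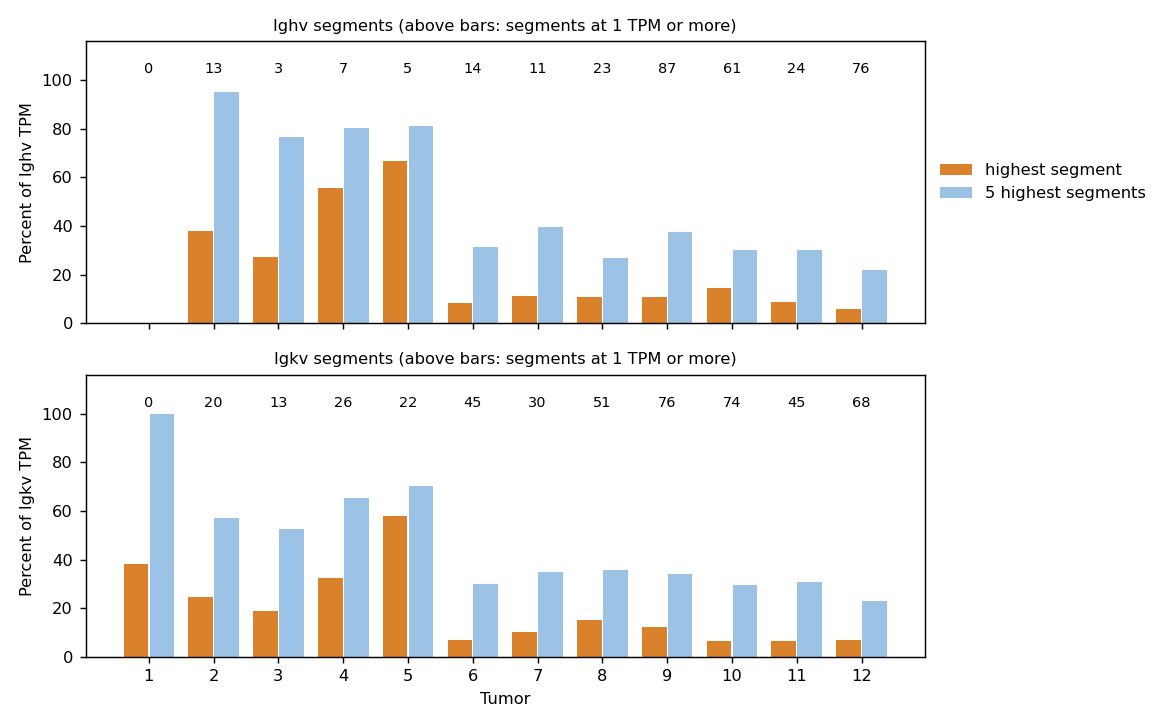
Share of the Ighv (top) and Igkv (bottom) TPM held by the highest segment (orange) and by the 5 highest segments (blue) in each tumor, with the number of segments at 1 TPM or more above the bars. The highest Ighv gene held 66.7% in tumor 5 and 5.77% in tumor 12. All Ighv genes were at 0 in tumor 1, and its Igkv bars rest on a sum of only 1.95 TPM.

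The joining segments are short pieces that link the variable and constant parts. Those of the heavy chain showed the same contrast between tumors 2 and 9. The 4 functional heavy-chain joining segments are given because 1 of them dominated tumor 2. They lie at chr12:113429781-113429833 (Ighj1), chr12:113429468-113429515 (Ighj2), chr12:113429085-113429132 (Ighj3) and chr12:113428514-113428567 (Ighj4), GRCm38, minus strand, with the start of the conserved tryptophan-glycine motif in capitals:
Ighj1: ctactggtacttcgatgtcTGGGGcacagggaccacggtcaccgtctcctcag
Ighj2: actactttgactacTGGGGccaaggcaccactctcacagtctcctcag
Ighj3: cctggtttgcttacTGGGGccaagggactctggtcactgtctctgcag
Ighj4: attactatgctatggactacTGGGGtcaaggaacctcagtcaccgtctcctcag

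Ighj3 was at 729 TPM in tumor 2, 92.7% of the 786 TPM of the 4 segments together. In the other 11 tumors it held 0% to 48.9%. Tumor 9 had all 4 segments at similar levels, from 145 TPM for Ighj4 to 174 TPM for Ighj2. Ighj4 held 65.5% in tumor 5 and 64.0% in tumor 3. For kappa, tumors 2 and 9 were closer, with Igkj1 at 57.5% and 48.0%. Igkj1 held 81.7% in tumor 4 and Igkj5 held 69.9% in tumor 5. Igkj2 held 77.8% in tumor 3 and 62.7% in tumor 6, and Igkj3 held no more than 2.03% in any tumor. The joining sequences shown are shorter than a 75-base read, so their TPM depends on how reads spanning a rearrangement were placed.

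**Figure D5:**
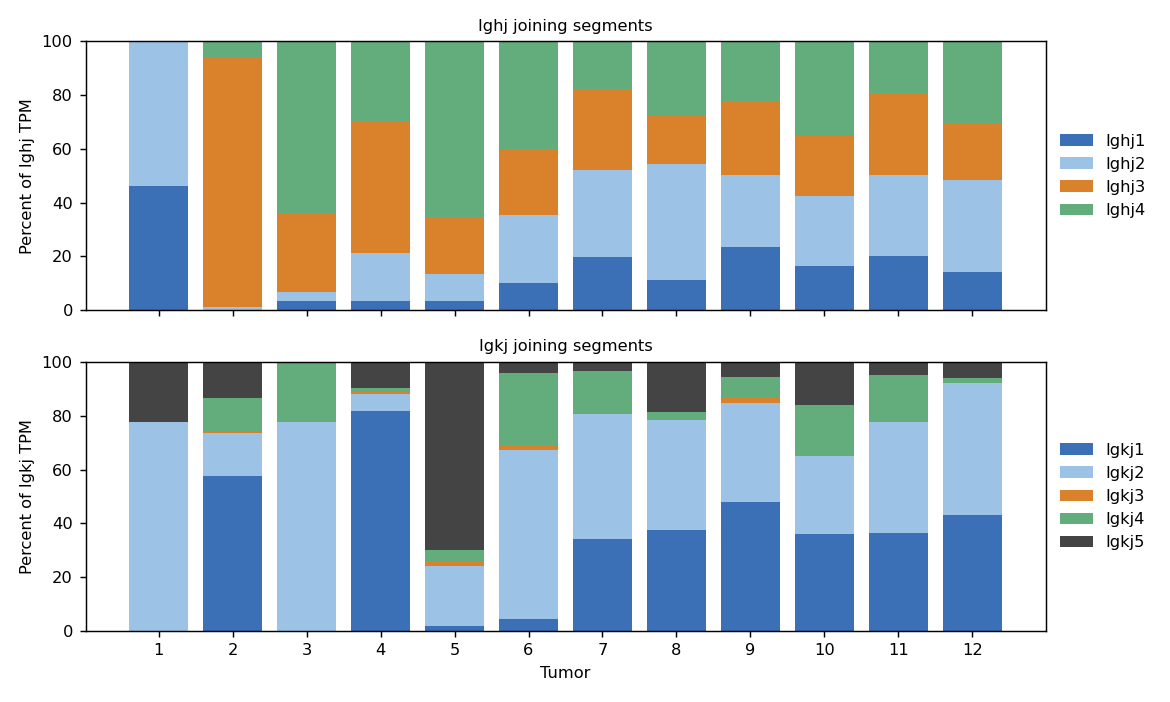
Stacked bars of the heavy-chain joining segments (Ighj, top) and kappa joining segments (Igkj, bottom) as percent of their summed TPM in each tumor. Ighj3 fills 92.7% of the bar of tumor 2, and Igkj5 fills 69.9% of the bar of tumor 5. The sums in tumor 1 were only 1.32 TPM for Ighj and 1.21 TPM for Igkj.

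Tumors of one mouse were not alike in level. In tumors 3 and 4 the heavy-chain sum was 34.6 and 161 TPM, a ratio of 4.64, with Ighm apart by 5.71 times and Igha by 1.34 times. In tumors 10, 11 and 12 the sum was 807, 240 and 834 TPM, a ratio of 3.47 between highest and lowest. Ighm in these was 251, 37.7 and 77.0 TPM, and Igha was 321, 127 and 573 TPM. All 3 tumors were led by Igha, and tumors 3 and 4 were both led by Ighm. Between mice the heavy-chain sum spanned 267 times, 125 times without the mouse of tumor 2, 32.2 times without that of tumor 1 and 15.1 times without both, so the span rests largely on the low sum of tumor 1. The last 3 spans were chosen after seeing the data. Only 2 mice had several tumors, so this comparison is a description.

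Genes of B cell development stood with the IgM of tumor 2. The surrogate light chain genes Igll1, Vpreb1, Vpreb2 and Vpreb3, which pair with the IgM heavy chain in precursor B cells or are expressed with it, were at 2261, 1176, 188 and 1265 TPM in tumor 2. In the other 11 tumors none of the 4 exceeded 2.12 TPM. Dntt, which adds bases at rearranged joints, was at 17.7 TPM in tumor 2 and at most 0.890 TPM elsewhere, while the recombinase genes Rag1 and Rag2 were at 0.0179 and 0.102 TPM there. The signalling chains of the antigen receptor, Cd79a and Cd79b, were at 609 and 675 TPM in tumor 2 and at 41.6 and 40.3 TPM in tumor 9. Ms4a1, the gene of CD20 and a marker of mature B cells, had the opposite order, 2.18 TPM in tumor 2 and 11.7 TPM in tumor 9.

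Of 10 B cell genes, 8 were at 1 TPM or more in tumor 2, 10 in tumor 9 and 0 to 5 in the other tumors. The T lymphocyte genes Cd3e, Cd3d, Cd3g, Cd4 and Cd8a also stood high in tumor 9, with a sum of 81.7 TPM against 9.08 TPM in tumor 2 and 3.26 to 65.4 TPM in the others. The part of these cell types in the isotype levels was not tested.

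Plasma cell genes differed from one another in their pattern over the tumors. Of 9 such genes, 6 to 8 were at 1 TPM or more in every tumor, and several are also made by epithelial cells. Xbp1, a factor of the secretory pathway, was lowest in tumor 2 at 42.3 TPM and between 106 and 387 TPM elsewhere. Mzb1, a chaperone of antibody assembly, was at 209 TPM in tumor 2, 16.3 TPM in tumor 9, 7.11 TPM in tumor 12 and 6.44 TPM in tumor 10, and at 0 in tumor 1. Irf4, Tnfrsf13b and Derl3 were also highest in tumor 2, at 100.2, 285 and 51.6 TPM. Outside tumor 2, Irf4 was highest in tumor 9 at 2.83 TPM, Derl3 in tumor 12 at 10.6 TPM, and Prdm1, a plasma cell transcription factor, in tumor 8 at 14.8 TPM. Tnfrsf17, a receptor typical of plasma cells, stayed under 1 TPM in all 12 tumors. Sdc1, a surface proteoglycan of plasma cells that epithelium also makes, was lowest in tumor 9 at 5.19 TPM and highest in tumor 6 at 329 TPM.

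Of the 5 genes of IgA transport and homing, Pigr, Madcam1 and Itgb7 were highest in tumor 9, and Ccr10 and Ccl28 were not. Pigr, the receptor that carries polymeric IgA and IgM across epithelium, was at 898 TPM in tumor 9 and at most 4.54 TPM in the other 11 tumors. Madcam1, a vessel ligand for gut-homing lymphocytes, was at 25.6 TPM and its receptor subunit Itgb7 at 29.4 TPM in tumor 9, with at most 9.34 and 15.7 TPM elsewhere. Ccl28, a chemokine for IgA-producing cells in the lactating gland, stayed under 1 TPM in all tumors and was at 0.173 TPM in tumor 9. Its receptor Ccr10 was highest in tumor 2 at 4.72 TPM, with 1.11 TPM in tumor 9. Fcamr, a receptor for IgA and IgM, was at 354 TPM in tumor 9 and at most 0.396 TPM elsewhere. Of the Fc receptors for IgG, the inhibitory receptor Fcgr2b was lowest in tumor 9 at 71.2 TPM and highest in tumor 8 at 315 TPM, and Fcgr1 was lowest in tumor 2 at 1.05 TPM and highest in tumor 8 at 64.7 TPM.

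Signals for class switching were listed at low levels for the most part. Tgfb1, a signal for switching to IgA, was lowest at 37.3 TPM in tumor 9 and highest at 96.9 TPM in tumor 8. Tnfsf13, a survival signal for plasma cells, was highest in tumor 9 at 33.4 TPM and lowest in tumor 2 at 0.306 TPM. Ifng, a signal for switching to IgG2 isotypes, was highest in tumor 9 at 2.28 TPM and at 0 in 6 tumors. Il4, a signal for IgG1 and IgE, stayed between 0.735 and 2.95 TPM, and Il5 and Il21 stayed under 1 TPM in all 12 tumors.

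The genes most like each member across mice were sought among 16949 genes at 1 TPM or more in at least 3 mice, by the Spearman rho of mouse means over 9 mice. For Igha the 5 nearest were the kappa segments Igkv16-104, Igkv4-61, Igkj2, Igkv14-111 and Igkv8-30, with rho from 0.983 to 1. Jchain ranked the 9 mice in the same order as Igha (rho 1), so every gene had the same rho with both. The same 5 genes were nearest to Jchain. For Igkc they were Igkv5-39, Igkv12-44, Tmem266, Tnfrsf21 and Igkv16-104 (0.95 to 0.983), and for Ighg2b Igkv5-39, Igkv17-127, Igkv12-44, Satb1 and Igkv1-110 (0.95 to 0.967). For Ighm none of the 5 was an immunoglobulin gene, and Mdp1, Rtn4rl1, H2-Ob and Ginm1 among them had rho from 0.95 to 0.983. Among the members themselves, Ighg1 and Ighg2c had rho 0.983 and Ighm and Ighd 0.883, whereas Ighm and Igha had rho 0.25, or 0.595 without the mouse of tumor 2. With Pearson's r on log2(TPM + 1) in place of rho, none of the 5 genes of Ighm or Igkc was found again, and without the mouse of tumor 2 only 1 of 5 was for Ighm. These values describe 9 mice whose genes share a library, and carry no test.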

How the data were processed

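Total RNA of homogenised tumor tissue was made into stranded mRNA libraries and sequenced as 75-base paired reads. The authors trimmed adapters, aligned reads to the GRCm38 transcriptome with HISAT and quantified them with StringTie 2.1.6, and they deposited TPM values, 1 column per tumor, for 47593 Ensembl genes. The sums lay between 999770 and 999909 per tumor. How reads matching several genes were divided is not given in the sources used here. No 2 tumors shared more than 2 genes with equal values above 1 TPM, so none was treated as a copy of another.

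From these values shares, ratios, means and SD over 9 mice were computed with Python 3.11.15, numpy 2.4.6 and pandas 2.3.3, and drawn with matplotlib 3.10.9. Log values are log2(TPM + 1). The members and all gene lists were chosen with earlier results of these data known. Named genes are all members, the lambda constant genes, the leading segments that took the largest or smallest share or belonged to tumor 2 or 9, listed genes by their extremes, and the 5 genes most like Ighm, Igha, Ighg2b, Igkc and Jchain. Joining segments, Ighv1-67, Igkv3-5, Ighv3-3, Ighv1-81, Ighv1-56 and Ighv1-83 were named after their values were seen. Some genes that this rule names are not reported here. The likeness step was tested on simulated data holding near copies of Igha, which checks the code but not how stable the rankings are. GENCODE vM21 placed 47137 of the 47593 identifiers and gave the sequences, and windows of 75 bases were searched in its transcripts. With 1 condition there was no comparison between groups and no p-value.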

Additional observations from a re-analysis of the deposited data

Results flagged for a closer look

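Over 9 mice 22 measures were screened: the log2 level of each of the 10 members, the shares of the 8 heavy-chain genes and of IgG as a whole, the ratio of Igkc to the heavy chains, the ratio of Jchain to Igha and Ighm, and the lambda share. A mouse far from all others is named here where its gap to the nearest exceeded Dixon's 95% critical value for 9 values, which chance alone passes in about 1 in 20 groups. The genes were chosen by these same levels, so the screen only points to values, and nothing is read from the 6 that it found. Igkc was lowest in the mouse of tumor 1, at 1.73 on the log2(TPM + 1) scale, with the nearest mouse at 7.11. Ighg3 was highest in the mouse of tumor 9, at 6.26 on that scale against 2.03 in the nearest mouse, and at 5.14% of the heavy-chain TPM against 2.30%. Ighd made up 7.69% of the heavy-chain TPM in the mouse of tumor 2, and 3.48% in the nearest mouse, that of tumor 9. Ighg1 made up 24.1% in the mouse of tumor 5 against 10.5% in the mouse with 3 tumors. Ighe was highest in the mouse with 3 tumors, at 0.31 on the log2(TPM + 1) scale against 0.14, all of it under 1 TPM in single tumors.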

How the results depend on the processing

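Of 271 alternative values over 30 results, 11 moved by more than the spread between mice (for counts, by more than 1.5 times). A mean over 9 mice cannot move that far when 1 mouse is left out, so the other values are no sign that the means are stable. Counting members at 10 TPM in place of 1 TPM lowered the median per tumor from 8 to 5. The median number of Ighv genes listed was 39.5 at 0.1 TPM and 0.5 at 10 TPM, against 13.5 at 1 TPM, where leaving out the mouse of tumor 2 or 9 gave 13 to 14. The other values that moved were the genes most like a member: with Pearson's r on log2(TPM + 1) in place of rho, 0 of the 5 genes named for Ighm and for Igkc were found again, 1 each for Igha and Ighg2b, and 2 for Jchain. Without the mouse of tumor 2, 1 of 5 was found again for Ighm, 2 for Ighg2b and 3 for Igkc. Leaving out 1 mouse moved the mean of Ighm between 66.1 and 424 TPM, of Igha between 104 and 198 TPM, of Igkc between 296 and 545 TPM and of Ighg3 between 1.42 and 10.9 TPM, the low ends being without the mouse of tumor 2 for Ighm and without that of tumor 9 for the others. No paired analysis was possible because there was a single condition. TPM gives no read depth, so low values such as those of Ighe and of tumor 1 cannot be given a counting error.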
